A study of Mus musculus with 4 samples.

Results

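The genes described here are 7 transcripts that mouse liver makes before birth and largely gives up afterwards (Afp, Gpc3, Igf2bp2, Igf2bp3, Lin28b, Cd24a and Spink1) and 2 postnatal repressors, Zhx2 and Zbtb20. They were chosen by symbol, through their Entrez gene numbers, with earlier results of these data known. The rule itself used no measured value. Of these 9 genes, 8 were listed in the tables, which held 17543 genes in all, and 7 had enough reads to be tested. Lin28b was listed in none of the 4 tables, and Spink1 had too few reads for the test. Transcripts were measured by RNA sequencing in whole livers of C57BL/6 mice. The wild-type (WT) group had 2 livers and the group with the Ezh2 mutation K307R on both copies (Ezh2 K307R) had 2, given as replicates 1 and 2, and no treatment is named for either. The labels give no sex, age, litter or hour of collection, do not say how the allele was made, and do not say that the replicates were separate animals, so p values speak only to the spread among these 4 samples. Livers of a genotype differed widely in some genes, as in H19 with 9 and 419 reads in the WT.

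Alpha-fetoprotein, the product of Afp, is the main plasma protein of the fetal liver, and hepatocytes shut its gene down in the weeks after birth while albumin stays on. ZHX2, a zinc finger and homeobox protein, and ZBTB20, a zinc finger protein, are known as repressors that take part in this shutdown. LIN28B blocks maturation of let-7 microRNAs, and the IGF2BP proteins bind and stabilise RNAs, with let-7 acting against several of their transcripts. EZH2 is the catalytic subunit of PRC2, which methylates lysine 27 of histone H3 and is known for keeping developmental genes silent. The comparison asks how the levels of these genes differ between WT and Ezh2 K307R livers.

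Values are given as log2 ratios of mutant over WT, the fitted log2 fold changes. Igf2bp3 was the member that changed, and it fell from a low level in the WT livers to near absence in the mutant livers. The other fetal genes were also at low levels, in both genotypes, and none of them rose. Afp and its repressor Zbtb20 were each lower in both mutant livers than in both WT livers, without passing the test. The same held for Zhx2, and 23.4% of all genes tested were lower in this way. Igf2bp2 and Cd24a were higher in both mutant livers, also without passing, as were 25.2% of all genes tested. Of the 7 members tested, 0 rose and 1 fell at an adjusted p under 0.05 (edgeR quasi-likelihood F test, Benjamini-Hochberg over all genes), where 1.39% of the 12837 genes tested rose and 1.47% fell, 2.86% in all. The share of genes that passed depended on the livers used, with 327 higher and 393 lower without WT replicate 1, 302 and 305 without WT replicate 2, 167 and 122 without Ezh2 K307R replicate 1, and 117 and 94 without Ezh2 K307R replicate 2, against 178 and 189 with all livers. The count of members that passed was 0 higher and 1 lower in each of these fits, and also with DESeq2 and limma-voom. At an unadjusted p under 0.05 in edgeR 0 members were higher and 3 lower (Afp, Igf2bp3 and Zbtb20). The log2 ratios of the 7 tested members, fetal genes and repressors together, ran from -4.28 (Igf2bp3) to 0.83 (Igf2bp2). Their median was -0.57, the value of Gpc3, against 0.01 over all genes tested.

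The tables summed to between 18602928 and 20044832 expected counts (estimated reads) per liver. Ezh2 itself had 58 and 83 reads in the WT livers and 65 and 50 in the mutant livers, and gene counts cannot show the mutation. The X-linked RNA Xist had 6 and 6 reads in the WT and 6172 and 11201 in the mutant livers, and the Y-linked genes Ddx3y, Eif2s3y, Kdm5d and Uty had 0 reads in both mutant livers and were present in both WT livers. Genotype and this sex-chromosome pattern therefore cannot be told apart in any result below. In whole tissue, fewer cells of a type and less RNA per cell cannot be told apart either. Levels are in CPM, counts scaled to depth with TMM library sizes, as mean ± SD. Alb, the albumin gene, stood at 103599 ± 2416 CPM in the WT and 100625 ± 3020 CPM in the mutants (n = 2 each). All 15 hepatocyte markers were present in every liver, and 0 of them passed the test, with 2 at an unadjusted p under 0.05 (Cyp2e1 and Hpd, both higher) and 1 called by DESeq2 (Cyp2e1).

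The promoters of the member that fell and of the best known fetal liver gene are shown because they differ in kind. Each line holds the 250 bases before a RefSeq start, 5′ to 3′ on the gene's own strand, from GRCm38.p6, the assembly also called mm10. The Afp window is chr5:90490464-90490713 on the plus strand, with capitals for GTTAAT, a word found in promoters of liver genes, and for TATAAA, the letters of a TATA box. The Igf2bp3 window is chr6:49214955-49215204 on the minus strand, with capitals for CACGTG, the E-box that MYC proteins are known to bind, and for CCAAT.
Afp: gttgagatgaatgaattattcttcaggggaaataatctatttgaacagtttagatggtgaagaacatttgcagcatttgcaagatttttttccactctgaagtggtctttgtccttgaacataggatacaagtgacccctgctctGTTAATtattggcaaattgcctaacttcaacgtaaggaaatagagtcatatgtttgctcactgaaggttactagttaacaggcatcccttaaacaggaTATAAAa
Igf2bp3: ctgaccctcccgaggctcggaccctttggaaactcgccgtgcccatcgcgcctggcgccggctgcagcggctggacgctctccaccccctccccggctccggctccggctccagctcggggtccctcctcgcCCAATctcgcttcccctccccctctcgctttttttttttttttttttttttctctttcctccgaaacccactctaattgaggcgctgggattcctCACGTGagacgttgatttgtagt
The Afp window held 1 CpG, and 7.87% of the 32851 promoters in the table held fewer. The Igf2bp3 window held 21 CpGs, above 83.7% of promoters, and its G and C content was 60.4% against 36% for Afp. Counted on both strands, GTTAAT was in 6.43% of all promoter windows of this length, TATAAA in 12.4%, CACGTG in 6.02% and CCAAT in 33.8%. The 4 words were chosen after the sequences were seen, and none overlaps another in these windows. Afp also held CCAAT, on the other strand and left in lower case, at position -98. Relative to those starts, GTTAAT began at position -105 and TATAAA at -7 in Afp, and CACGTG began at -23 and CCAAT at -118 in Igf2bp3. A match describes letters and is no evidence of binding. Among the 6 members with a promoter in the table, Igf2bp2 (40 CpGs) and Gpc3 (25) had CpG-dense windows like that of Igf2bp3, and Lin28b (6) and Zbtb20 (3) did not. The windows of Igf2bp3, Lin28b and Zbtb20 lie inside the annotated span of the gene. For Zbtb20 the window begins at 43247034 and the gene at 42875689. Other starts of these genes were not examined, so the CpG counts hold for the windows used only.

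Afp (Entrez gene 11576, chromosome 5 from 90490714 to 90508907) had 40 and 41 reads in the WT livers and 11 and 22 in the mutant livers. Both mutant livers were below both WT livers. The level was 2.13 ± 0.264 CPM in the WT and 0.854 ± 0.383 CPM in the mutants (n = 2 each). The log2 ratio was -1.30 (SE 0.46), and its 95% interval for the gene taken alone ran from -2.38 to -0.23. Among all genes the difference did not pass (edgeR adjusted p = 0.21). At these counts the precision is limited, since 11 reads carry a 95% Poisson interval from 5.49 to 19.7 and 22 reads one from 13.8 to 33.3, against 28.6 to 54.5 for 40 reads, for counting error only. The single transcript in the tables spanned 2086 bases.

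Per transcript length, Afp was a trace transcript beside its neighbour Alb, the albumin gene. In FPKM, fragments scaled to transcript length and depth, Afp stood at 0.99 and 0.98 in the WT livers and at 0.28 and 0.56 in the mutant livers. Alb exceeded it 44246-fold and 54399-fold in the WT livers and 171142-fold and 91973-fold in the mutant livers. None of the 4 genes of the albumin cluster passed the test. Afm, which encodes afamin, a vitamin E-binding plasma protein, stood at a log2 ratio of 0.44 (edgeR adjusted p = 0.398). Alb stood at -0.04 (0.963), or 0.03 with total-count scaling. Of the 12 transcription factor genes known as activators of Afp or Alb, 0 rose and 0 fell, with a median log2 ratio of 0.27 against 0.01 over all genes tested. Cebpb, a factor of the acute phase and of liver growth, came nearest with -1.27 (edgeR adjusted p = 0.0515), followed by the pioneer factor gene Foxa3 with -0.88 (0.129) and the endoderm factor gene Gata4 with 0.70 (0.141). Cebpb passed without WT replicate 1 (0.0234), WT replicate 2 (0.0293) or Ezh2 K307R replicate 2 (-1.70, 0.0134), and Foxa3 without WT replicate 1 (0.0378).

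**Figure D1:**
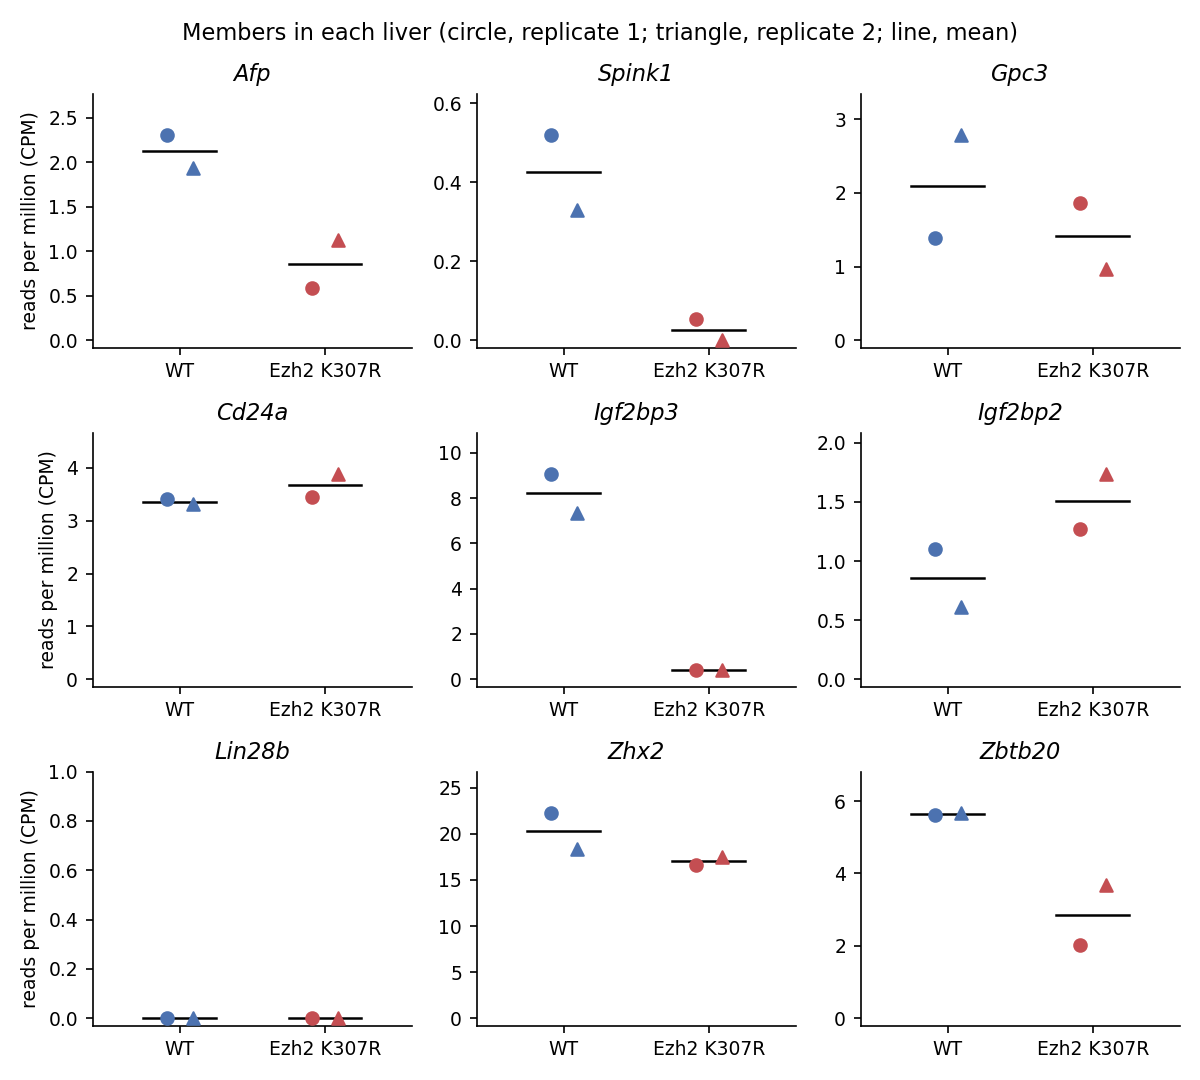
Level of each member in each liver, in CPM with TMM library sizes, on linear axes that differ between genes and start at or just below 0. Circles are replicate 1, triangles replicate 2 and lines the mean of the 2 livers of a genotype. Igf2bp3 stands at 9.08 and 7.34 in the WT and at 0.424 and 0.409 in the Ezh2 K307R livers, while the values of Gpc3 overlap and Lin28b is at 0 throughout.

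Spink1 (Entrez gene 20730, chromosome 18 from 43728069 to 43737237) encodes a secreted trypsin inhibitor that is abundant in pancreatic acinar cells. It had 9 and 7 reads in the WT livers and 1 and 0 in the mutant livers, too few for the filter of the edgeR test. Both mutant livers were below both WT livers. The ratio of WT to mutant reads was 16 with an exact 95% Clopper-Pearson interval from 2.48 to 671, which covers counting error only. With no filter on low counts, edgeR gave Spink1 an adjusted p of 0.141. Of 15 pancreatic acinar markers, 12 were listed in no liver, among them the digestive enzyme genes Prss2, Cpa1, Pnlip and Amy2a5. Of the 2 acinar genes tested, 0 rose and 1 fell. Cela2a, an elastase gene, went from 98 and 118 reads in the WT to 16 and 8 in the mutants, a log2 ratio of -3.15 (SE 0.42, edgeR adjusted p = 0.0116), and -3.76 without Ezh2 K307R replicate 1. Cela1 had -0.82 (edgeR adjusted p = 0.283), and -1.21 (0.0445) without WT replicate 2. The summed level of the list was 17.1 and 11.9 CPM in the WT livers and 6.37 and 4.91 CPM in the mutant livers, and its part in the values of Spink1 was not tested.

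Gpc3 (Entrez gene 14734, chromosome X from 52272426 to 52613974), a cell surface glypican made by fetal hepatocytes and by liver tumours, had 24 and 59 reads in the WT livers and 35 and 19 in the mutant livers. The genotypes overlapped, and the WT livers lay at both sides of the first mutant liver. The levels were 2.09 ± 0.993 and 1.41 ± 0.626 CPM (n = 2 each). The log2 ratio was -0.57 (SE 0.51, 95% interval -1.75 to 0.60, edgeR adjusted p = 0.633), and 0.02 without WT replicate 2. Of the 4 glypican genes tested, 0 rose and 0 fell, with a median of -0.35. Gpc4, the neighbour of Gpc3 on the X chromosome, had a log2 ratio of -0.13 (edgeR adjusted p = 0.813), and Gpc1 had -1.26 (0.244).

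The high Gpc3 value of WT replicate 2 was shared by other fetal and growth genes. H19, an imprinted RNA that is abundant in fetal liver, had 9 and 419 reads in the WT livers and 14 and 7 in the mutant livers. Its log2 ratio was -4.21 (edgeR adjusted p = 0.163) with all livers, 0.07 (0.982) without WT replicate 2, and -5.16 without WT replicate 1, where it passed. Of the 13 other fetal and oncofetal liver genes tested, 7 had their highest level in WT replicate 2, as had 25.2% of all genes tested. All 8 proliferation genes tested, such as the proliferation antigen gene Mki67 (27 and 170 reads in the WT, 36 and 45 in the mutants), were highest there too. The summed level of the 10 genes of that list was 8.27 CPM in WT replicate 1, 32.9 CPM in WT replicate 2 and 5.78 and 11.5 CPM in the mutant livers. With all livers none of these genes passed the test, and of the proliferation genes 1 (Cdk1) had an unadjusted p under 0.05 in edgeR. Without WT replicate 1, where WT replicate 2 stood alone, Mki67 was at -1.93 (edgeR adjusted p = 0.00423). The part of this liver in the values of Gpc3 is given by the fit without it.

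**Figure D2:**
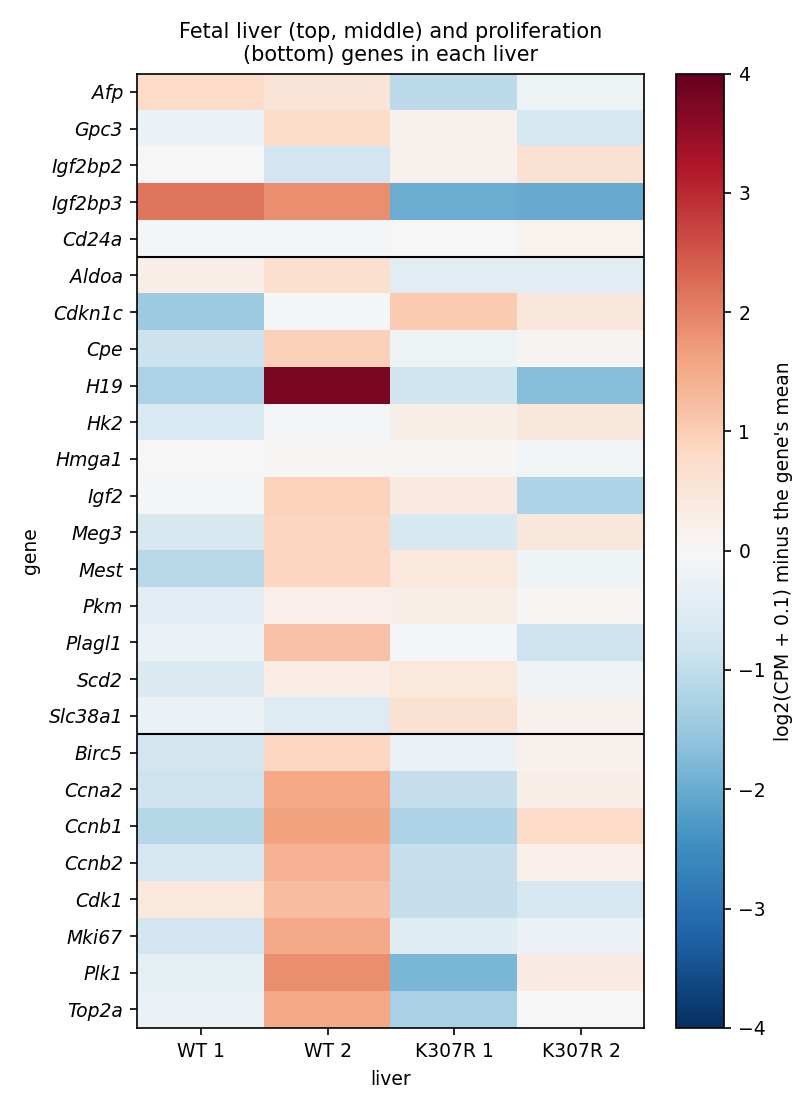
Fetal liver members tested (top), other fetal and oncofetal genes (middle) and proliferation genes (bottom) in each of the 4 livers, as log2(CPM + 0.1) minus the gene's mean over the livers. Red is above and blue below that mean. H19 and the 8 proliferation genes are highest in WT replicate 2, whereas Igf2bp3 is high in both WT livers and low in both mutant livers.

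Cd24a (Entrez gene 12484, chromosome 10 from 43579169 to 43584265) encodes a small surface glycoprotein of hepatic progenitors, bile duct cells and blood cells. It had 59 and 70 reads in the WT livers and 65 and 76 in the mutant livers. The levels, 3.36 ± 0.0709 and 3.67 ± 0.311 CPM (n = 2 each), differed by little. The log2 ratio was 0.13 (SE 0.30, edgeR adjusted p = 0.882), and its 95% interval from -0.57 to 0.82 leaves room for changes of that size in either direction. Of the 9 bile duct and progenitor markers tested, 0 rose and 0 fell, with 2 higher at an unadjusted p under 0.05 in edgeR (Prom1 and Sox9), none called by DESeq2, and summed levels of 94.1 and 74.6 CPM in the WT and 55.6 and 91.8 CPM in the mutant livers. None of the 4 B cell markers or 6 neutrophil markers tested passed in edgeR or DESeq2 either, and S100a9 alone had an unadjusted p under 0.05. Of the 8 erythroid markers tested 0 rose and 1 fell. This was Alas2, the X-linked first enzyme of haem synthesis in red cells (-1.94, edgeR adjusted p = 0.0276, and 0.0598 without Ezh2 K307R replicate 1), while the globin genes Hba-a1 (0.73, adjusted p = 0.259) and Hbb-bs (0.73, 0.139) had values on the other side. Hba-a1 passed without WT replicate 2 (1.18, 0.0472), and its copies share reads. At an unadjusted p under 0.05 in edgeR 4 globin genes were higher, and DESeq2 called 3 of them higher (Hba-a2, Hbb-bs and Hbb-bt) and Alas2 lower.

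Igf2bp3 (Entrez gene 140488, chromosome 6 from 49085218 to 49215469) encodes an oncofetal RNA-binding protein of the IGF2BP family. It had 157 and 155 reads in the WT livers and 8 and 8 reads in the mutants. The read counts of the genotypes were far apart. The 95% Poisson intervals were 132 to 181 for the lower WT count and 3.45 to 15.8 for each mutant count, for counting error only. The level fell from 8.21 ± 1.24 to 0.417 ± 0.0107 CPM (n = 2 each), a log2 ratio of -4.28 (SE 0.36, 95% interval -5.12 to -3.43, edgeR adjusted p = 0.0016), which is 19.4-fold. By p it ranked 25 among the 12837 genes tested, and by log2 ratio 17 among the autosomal genes that fell. It stayed past the threshold in all 14 other settings, with values from -4.12 to -4.43 when single livers were left out. The single transcript listed spanned 4366 bases, and 53.9 kb of the gene's span are shared with Malsu1, a mitochondrial ribosome assembly gene. That overlap is one of genomic spans, whereas reads were counted on transcripts. Whether the transcripts share bases was not examined, and the strand of counting is not stated.

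Igf2bp2 (Entrez gene 319765, chromosome 16 from 22059009 to 22163299), the family member known for expression in adult tissues, had 19 and 13 reads in the WT and 24 and 34 reads in the mutants. Both mutant livers were above both WT livers, as were those of 25.2% of all genes tested. The levels were 0.857 ± 0.342 and 1.51 ± 0.329 CPM (n = 2 each), and the log2 ratio of 0.83 (SE 0.48, 95% interval -0.29 to 1.95) did not pass (edgeR adjusted p = 0.452). Igf2bp1 had 1 read in the 4 livers together. Per transcript length Igf2bp3 stood above Igf2bp2 in the WT livers and below it in the mutant livers. Only the fall of Igf2bp3 passed the test. Igf2bp3 stood at 1.84 and 1.75 FPKM in the WT livers against 0.25 and 0.16 FPKM for Igf2bp2. In the mutant livers Igf2bp3 stood at 0.10 and 0.10 FPKM against 0.33 and 0.46 FPKM for Igf2bp2.

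The 8 tested genes whose RNAs or proteins are known as clients or partners of the IGF2BP proteins held no call in either direction, and their median log2 ratio was 0.00. Those with the smallest p after H19 were the cytoplasmic actin gene Actb (-0.40, edgeR adjusted p = 0.441) and the adhesion receptor gene Cd44 (0.52, 0.455). Igf2, the fetal growth factor gene that gives the family its name, had 6 and 17 reads in the WT livers and 10 and 2 in the mutant livers.

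**Figure D3:**
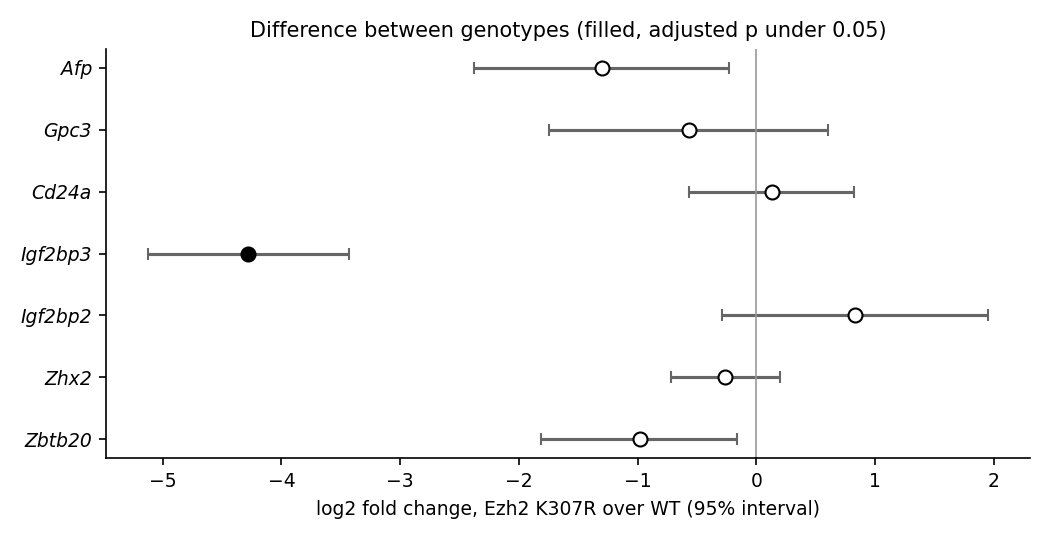
Log2 fold change of Ezh2 K307R over WT livers for the 7 members tested, with 95% intervals from edgeR's quasi-likelihood fit. Filled points have an adjusted p under 0.05. Igf2bp3, at -4.28, is the filled point, and the intervals of Afp and Zbtb20 lie below 0 although their adjusted p values are 0.21 and 0.215.

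Igf2bp3 lies on the same chromosome as the mutated gene, with 1.49 Mb between the end of Ezh2 and its own annotated span. Within 5 Mb of the middle of Igf2bp3, a window chosen after the values were seen, 42 other genes were tested, of which 0 rose and 1 fell. This is 2.38%, near the 2.86% of all genes tested. The gene that fell was Snx10, a sorting nexin gene at a distance of 2.41 Mb (-1.02, edgeR adjusted p = 0.0418). It lost its call without WT replicate 2 (0.052), Ezh2 K307R replicate 1 (0.0667) or Ezh2 K307R replicate 2 (0.174). The 21 genes tested within 1 Mb had log2 ratios between -0.60 and 0.85, and none passed. Malsu1, which overlaps Igf2bp3, had 257 and 212 reads in the WT and 189 and 157 reads in the mutants, a log2 ratio of -0.46 (edgeR adjusted p = 0.44). The lowest log2 ratios beside Igf2bp3 were those of Nfe2l3 (-1.97, edgeR adjusted p = 0.196) and Jazf1 (-1.70, 0.0967), which did not pass. The highest in the window was 0.85. Igf2bp3, at -4.28, had the largest fall in the window, and its cause was not tested.

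**Figure D4:**
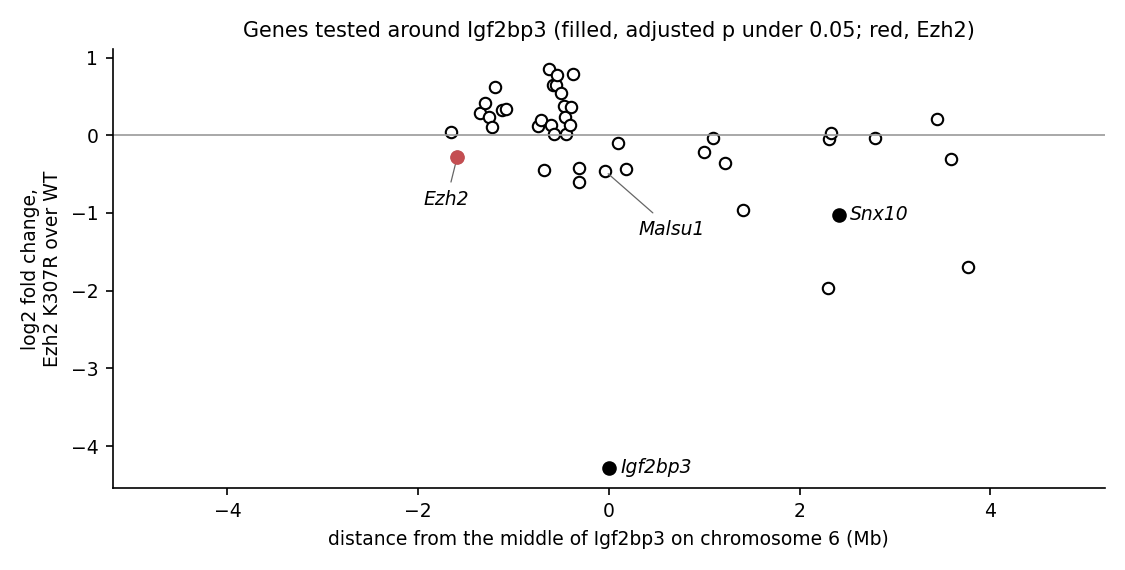
Log2 fold change of Ezh2 K307R over WT livers for the genes tested within 5 Mb of Igf2bp3, against the distance between gene midpoints in Mb. Black points have an adjusted p under 0.05, and Ezh2 is red, at an adjusted p of 0.736. Igf2bp3 is at -4.28, and the other 42 genes lie between -1.97 and 0.85.

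Lin28b (Entrez gene 380669, chromosome 10 from 45376617 to 45486314) was listed in none of the 4 tables, whose smallest FPKM was 0.01, and neither was its paralogue Lin28a. The tables gave no sign of either let-7 inhibitor in the livers of either genotype at this depth. Hmga2, a chromatin protein gene and a known let-7 target, had 1 and 0 reads in the WT and 2 and 0 in the mutant livers. Over all genes tested 1.39% rose and 1.47% fell, and the median log2 ratio was 0.01. Of 12 genes of the LIN28 and let-7 axis tested, 0 rose and 3 fell, with a median of -0.09. Beside Igf2bp3 these were the growth regulators Myc and Mycn, also known let-7 targets. Myc had 147 and 190 reads in the WT and 62 and 74 reads in the mutants, a log2 ratio of -1.31 (SE 0.26, edgeR adjusted p = 0.0428). Mycn had 66 and 41 reads in the WT and 10 and 9 reads in the mutants, a log2 ratio of -2.52 (SE 0.51, edgeR adjusted p = 0.0457). Both genes were lower in both mutant livers than in both WT livers. These calls were near the threshold. Of the 14 other settings, Myc lost its call in 7 and Mycn in 9. With all livers, limma-voom gave Myc an adjusted p of 0.0528 and Mycn one of 0.0777. In edgeR with total-count scaling the adjusted p values were 0.0907 and 0.0592. When single livers were left out, log2 ratios ran from -1.41 to -1.21 for Myc and from -2.94 to -1.96 for Mycn. Beside the IGF2BP genes, Myc and Mycn, the smallest p values of that list belonged to the Argonaute gene Ago2 (0.67, edgeR adjusted p = 0.421) and the exonuclease gene Dis3l2 (-0.34, 0.452).

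Zhx2 (Entrez gene 387609, chromosome 15 from 57694667 to 57839832) was the highest of the members per transcript length, at 4.48 and 4.36 FPKM in the WT livers and 3.77 and 4.11 FPKM in the mutant livers. It had 385 and 389 reads in the WT and 312 and 342 reads in the mutants. The levels of 20.3 ± 2.73 and 17 ± 0.666 CPM (n = 2 each) were separate by a narrow margin. The log2 ratio was -0.26 (SE 0.20, edgeR adjusted p = 0.581), with a 95% interval from -0.72 to 0.20. Of the 6 tested genes of the ZHX family and the other known repressors of Afp, Zbtb20 included, 0 rose and 0 fell, with a median of -0.11. The tumour suppressor gene Trp53, one of them, had -0.34 (edgeR adjusted p = 0.571).

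Zbtb20 (Entrez gene 56490, chromosome 16 from 42875689 to 43634392) had 97 and 120 reads in the WT livers and 38 and 72 in the mutant livers. Both mutant livers were below both WT livers, which lay close together. The span of the gene overlaps Tigit, an immune receptor gene. The level was 5.65 ± 0.0479 CPM in the WT and 2.85 ± 1.18 CPM in the mutants (n = 2 each), a log2 ratio of -0.98 (SE 0.35, 95% interval -1.81 to -0.16). The interval is for the gene taken alone, and the difference did not pass among all genes (edgeR adjusted p = 0.215). Members whose genotypes did not overlap were 4 lower (Afp, Igf2bp3, Zhx2 and Zbtb20) and 2 higher (Igf2bp2 and Cd24a) of 7 tested, beside 23.4% and 25.2% of all genes tested. Afp and the repressor Zbtb20 thus lay on the same side.

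Zbtb20 was the only member with more than 1 transcript in the tables, where RSEM had divided its reads between 3. The transcript of 2934 bases took 73.15 and 85.39 reads in the WT livers and 28.37 and 15.79 reads in the mutants. The transcript of 3156 bases took 23.85 and 0 reads in the WT and 9.63 and 56.21 reads in the mutants. The transcript of 3209 bases took 34.61 reads in WT replicate 2 and 0 in the other livers. The shortest one thus held 75.4% and 71.2% of the gene's reads in the WT livers and 74.7% in Ezh2 K307R replicate 1, but 21.9% in Ezh2 K307R replicate 2. The livers of a genotype differed in this division, and no test was made of it.

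Genes that have been reported to respond to ZHX2 or ZBTB20 in mouse liver, Afp, H19 and Gpc3 included, had a median log2 ratio of -1.77 over 9 tested. Of these 0 rose and 3 fell. Over all genes tested the median was 0.01, and 1.39% rose and 1.47% fell. The list was not divided by the reported direction of the response, so its median does not measure the activity of either factor.  Mup20, a major urinary protein of male mice, had a mean of 2366 CPM in the WT and 73.8 CPM in the mutants (edgeR adjusted p = 0.00646, SE of the log2 ratio 0.57). Its log2 ratio was -3.97 without WT replicate 1 and -5.60 without WT replicate 2. Cyp4a12a, a male-type fatty acid hydroxylase, fell by 7.91 on the log2 scale (SE 1.25, edgeR adjusted p = 0.0217), and lost its call with limma-voom (0.0851). Its value was -5.74 without WT replicate 1, -8.74 without WT replicate 2, -6.98 without Ezh2 K307R replicate 1 and -11.58 without Ezh2 K307R replicate 2. Both genes are known for high levels in male liver and were lower in the livers without Y-linked transcripts. Whether they share reads with similar gene copies was not examined. Lpl, the lipoprotein lipase gene, known to be on in perinatal rodent liver, fell by 2.32 (SE 0.38, edgeR adjusted p = 0.0244), with -1.65 without WT replicate 2 and an adjusted p of 0.0646 without Ezh2 K307R replicate 2. Egfr, the epidermal growth factor receptor gene, had 11970 and 10815 reads in the WT and 2141 and 4668 reads in the mutants, with an edgeR adjusted p of 0.0523 at a log2 ratio of -1.77. It passed without WT replicate 1 (0.023), WT replicate 2 (0.0052) or Ezh2 K307R replicate 2 (-2.41, 0.0178). Cyp2a4 and Elovl3, both lipid or steroid enzymes, varied several-fold between livers of a genotype and did not pass.

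In the related lists with 0 calls, edgeR gave an unadjusted p under 0.05 to Aldoa, H19 and Cdkn1c among the other fetal genes and to Zbtb20 among the repressors. It did so for Cebpb, Foxa2, Foxa3 and Gata4 among the activators, for Afp in the albumin cluster, for H19 among the IGF2BP clients and for Gpc1 among the glypicans. Of these genes DESeq2 called Aldoa, Cebpb and Foxa3, and limma-voom called none.

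**Figure D5:**
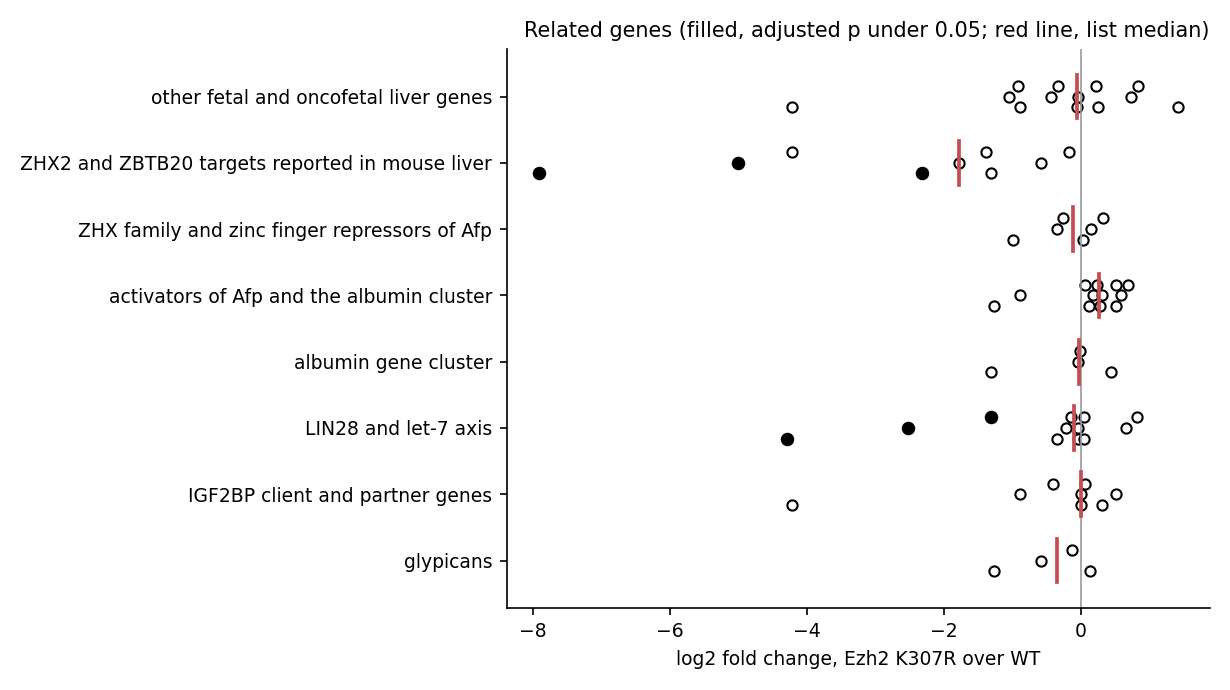
Log2 fold change of Ezh2 K307R over WT livers for each tested gene of the 8 related lists, with the list median as a red line. Filled points have an adjusted p under 0.05. The filled points are Cyp4a12a, Mup20 and Lpl among the ZHX2 and ZBTB20 targets and Igf2bp3, Mycn and Myc in the LIN28 and let-7 axis. Genes can stand in several lists.

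The wider set of fetal and oncofetal liver genes showed no call. Of 23 such genes beside the members, 20 were listed and 13 tested, with 0 that rose, 0 that fell and a median log2 ratio of -0.05. The smallest p values after that of H19 and of Aldoa, the muscle-type aldolase gene (-0.92, edgeR adjusted p = 0.0667), belonged to Cdkn1c, an imprinted cell cycle inhibitor gene (1.42, 0.232). Aldoa was below both WT livers in both mutant livers, and Cdkn1c above. Cdkn1c passed without WT replicate 2 (2.41, 0.0242). Aldoa passed without WT replicate 1, where its value was -1.09. Dlk1, a marker of fetal hepatoblasts, had 0 and 1 reads in the WT and 0 and 0 in the mutant livers. The extracellular matrix genes Dcn (1.36, edgeR adjusted p = 0.0348) and Col1a1 (-2.48, 0.0365) were the 2 of 8 stellate cell and fibroblast markers that passed. Dcn had an adjusted p of 0.0747 without Ezh2 K307R replicate 1. Col1a1 was at -1.57 without WT replicate 2 and had an adjusted p of 0.105 without Ezh2 K307R replicate 2. Col3a1, another collagen gene, had -1.62 (edgeR adjusted p = 0.051). It passed without WT replicate 1 (-1.98, 0.000811), WT replicate 2 (0.04) or Ezh2 K307R replicate 1 (-2.02, 0.031). DESeq2 called 3 markers of that list higher and 2 lower. Summed levels of the list were 149 and 254 CPM in the WT and 299 and 227 CPM in the mutant livers, and its part in the values of the members was not tested. None of the 9 Kupffer cell or 8 sinusoidal endothelial cell markers passed in edgeR. At an unadjusted p under 0.05, 3 of the former were higher, and 2 of the latter were higher and 1 lower. Among the endothelial genes the lectin gene Clec4g came nearest (0.79, edgeR adjusted p = 0.0782), and of both lists DESeq2 called Vsig4 alone, a Kupffer cell receptor gene, higher.

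Set in order by mean FPKM, the WT livers had Zhx2 at 4.42, Zbtb20 at 1.82, Igf2bp3 and Cd24a both at 1.79, Spink1 at 1.03, Afp at 0.985, Gpc3 at 0.915 and Igf2bp2 at 0.205. Zbtb20, Igf2bp3 and Cd24a, and again Spink1, Afp and Gpc3, were within the spread of the livers of each other. In the mutant livers the order was Zhx2 at 3.94, Cd24a at 2.06, Zbtb20 at 0.955, Gpc3 at 0.63, Afp at 0.42, Igf2bp2 at 0.395, Igf2bp3 at 0.1 and Spink1 at 0.07. Zbtb20, Gpc3, Afp and Igf2bp2 overlapped from one to the next, and so did Igf2bp3 and Spink1. Igf2bp3 thus moved from the upper part of the order to its lower end, and Zhx2 held the top in both genotypes. Zhx2 exceeded 61.8% of the genes listed by its mean FPKM over the 4 livers, Cd24a 49.9%, Igf2bp3 40.8% and Afp 37.7%.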

How the data were processed

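Whole liver RNA was sequenced in 4 samples. Expected counts, estimated by RSEM for RefSeq transcripts, were deposited unnormalized in 1 table per liver, per the file headers. FPKM values stand in the same tables, which the authors scaled to length and depth, per the file headers. The submitters' processing notes name HISAT, Bowtie2, RSEM and mm10. Their versions and the strand of counting are not stated there.

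Transcript counts were summed to genes, rounded, and set to 0 where a gene was unlisted. Genotypes were compared with edgeR 4.0.16 (R 4.3.3) by a quasi-likelihood F test after TMM and filterByExpr. The model held genotype alone and left 2 residual degrees of freedom, p values were adjusted by Benjamini-Hochberg over 12837 genes (threshold 0.05), and the script was tested on simulated data. SE is the log2 fold change over the root of F. RefSeq's GRCm38.p6 table named 99.8% of 17543 genes and all 185 list symbols. Alternatives were 3 other scalings (RLE, upper quartile, total count), DESeq2 1.42.0, limma 3.58.1 with voom or on log2 of FPKM plus 1 or 0.1, no filter, a filter at 1 CPM, a replicate block, and fits without 1 liver, which assume that the lone liver varies like the others.

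Members and lists were chosen with earlier results of these data known. Named genes are the members, the called genes and those of the 3 smallest p in each related list, and the called and the 2 most abundant markers of each cell type, of which not all are printed. Ezh2, Snx10, Malsu1, Nfe2l3, Jazf1, Egfr, Ago2, Dis3l2 and the genes given by name or reads only were named after their values were seen.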

Additional observations from a re-analysis of the deposited data

How the results depend on the processing

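The call of Igf2bp3 held in the 14 other settings, from -1.35 on log2(FPKM + 1) to -4.43 without WT replicate 2. None of the other 6 members tested passed in any setting that gave them a value. The number of genes that rose and fell was 368 and 370 with DESeq2, 94 and 69 on log2(FPKM + 1), 91 and 70 on log2(FPKM + 0.1), and 410 and 419 with no filter on low counts. It was 188 and 124 with total-count scaling, a share of higher calls of 60.3% against 48.5%. Leaving out single livers gave 117 to 327 higher and 94 to 393 lower genes. With the replicate number as a block there were 166 and 181, Igf2bp3 stood at -4.27 (edgeR adjusted p = 0.00445), and Myc (0.0591) and Mycn (0.0585) lost their calls, as did Snx10 (0.0551), Dcn (0.0506) and Col1a1 (0.0593), while Cebpb passed (0.0414). The labels do not say that replicate numbers pair livers, so the numbers are not treated as pairs. Deviations of same-numbered livers correlated at -0.003 over the genes tested, a value that cannot show whether livers were paired. Over the fits without 1 liver, some genes without a call changed sign: Gpc3 (-1.11 to 0.02), H19 (-5.16 to 0.07), Trp53 (-0.63 to 0.03), Gpc4 (-0.29 to 0.02), Mki67 (-1.93 to 0.43), Ly6g (-0.22 to 0.27), Cd79a (-0.70 to 0.02), Cd79b (-0.28 to 0.76), C1qa (-0.07 to 0.45) and Cxcr2 (-0.13 to 0.06). Scaling moved Cxcr2 to 0.01 (upper-quartile) and 0.05 (total-count) and Alb to 0.03 (total-count), with 0.04 on both FPKM scales. The causes were not tested. Low counts limit the members: Afp, Gpc3, Igf2bp2 and Spink1 had under 100 reads in each genotype.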
